A study of Mus musculus with 6 samples.

Results

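The genes described here are the ubiquitin-conjugating (E2) enzymes and the ubiquitin-specific proteases (USPs) of the mouse testis, taken as every gene whose symbol in the array's annotation begins with Ube2, or with Usp followed by a digit. A probe set had to name the gene alone, and the brightest such probe set stood for a gene. This gave 84 genes, 33 Ube2 and 51 Usp genes, of 18193 genes named in this way on the array. Of them 79 were bright enough to test, 32 Ube2 and 47 Usp genes, among 13447 genes tested. The rule used the symbols only. It therefore also took in 4 symbols that name something else: Ube2cbp (an E3-type ligase that binds an E2), the pseudogene Ube2d-ps, the antisense transcript Usp46os2 and Usp6nl (a Rab GTPase-activating protein). They are kept in the counts and named as such. Ube2m and Ube2l3 had no probe set that named them alone and are not among the members.

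RNA of whole testes at postnatal day 21 (P21) was compared between 3 wild-type (Wt) samples and 3 samples of mice homozygous for the Dazap1 Fn allele (Fn), all of a mixed C57BL/6 and 129 background, with 1 Affymetrix array per sample. DAZAP1 is an RNA-binding protein of the hnRNP family. The Fn allele is not a null: its neo cassette leaves an altered protein with extra residues between both RNA-binding domains, and the few homozygotes that survive birth are growth retarded, with germ cells that stop in meiosis. Values are MAS5 signals, which give the brightness of a probe set on a linear scale.

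Ubiquitin is passed from an E1 activating enzyme to an E2 enzyme, which hands it on to a protein chosen by an E3 ligase, and USPs remove it again. Through this cycle cells mark proteins for the proteasome, sort membrane proteins and change chromatin. In male germ cells ubiquitin on histones H2A and H2B takes part in the silencing of the sex chromosomes at pachytene and in the later exchange of histones, and mice without the E2 gene Ube2b or the USP genes Usp1 or Usp2 have impaired sperm production or male fertility.

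The members moved in both directions. At an adjusted p under 0.05 from limma, 19 of the 79 genes tested were lower in Fn testes and 34 were higher, which is 24.1% and 43.0% of them, and 26 did not pass. Among all genes tested 24.7% were lower and 44.9% were higher, so both shares of the members lay near the background. Beyond 2-fold, 7 members were lower and 10 were higher, where 13.8% and 11.6% of all genes were. The 3 Fn values lay wholly above or below the 3 Wt values in 54 members, against 75.6% of all genes. The median log2 change (Fn minus Wt) was 0.16 for the members and 0.32 for all genes on the deposited scale. Ube2 genes had 6 lower and 17 higher of 32 with a median change of 0.22, and Usp genes 13 lower and 17 higher of 47 with a median of 0.04, which turned to -0.12 with the arrays centred on their medians.

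**Figure D1:**
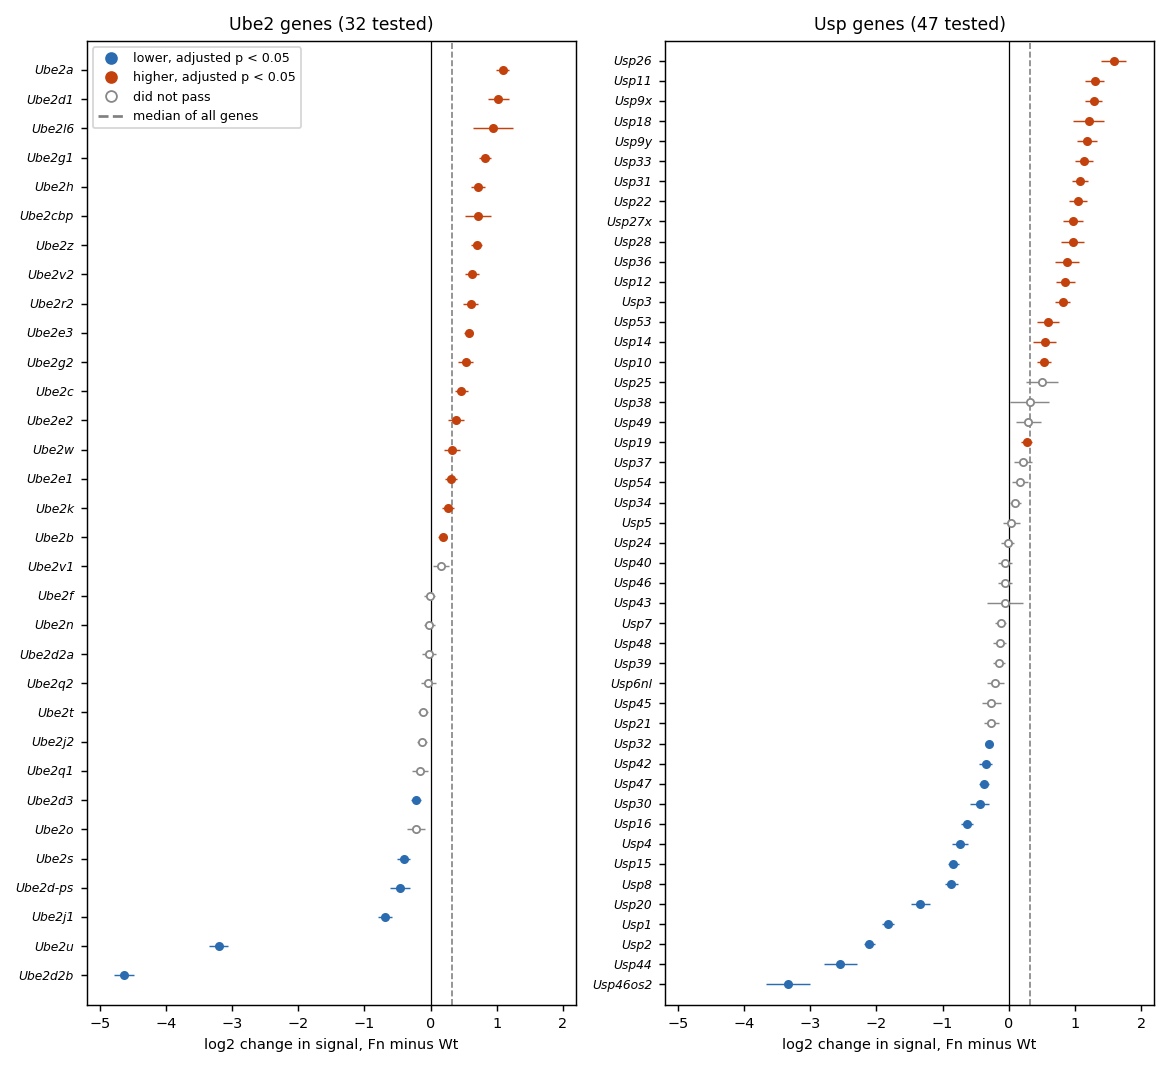
Change on the log2 scale from Wt to Fn testes for the 32 Ube2 genes (left) and the 47 Usp genes (right) tested, 1 point per gene with limma's standard error as the bar. Filled points passed an adjusted p of 0.05, open points did not, and a dashed line gives the all-gene median, 0.32. A few genes of each family lie far to the left, down to -4.63 for Ube2d2b, while no gene lies above 1.58.

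RNA of markers of germ cell stages and somatic cells differed between the genotypes. All 10 markers of pachytene and diplotene spermatocytes were lower in Fn testes, with a summed signal of 89400 to 98080 in Wt and 19210 to 27120 in Fn. Round spermatid markers fell in 7 of 7 tested (20240 to 24100 against 2193 to 2878) and elongating spermatid markers in 6 of 7 (2757 to 5182 against 229 to 295). The 6 include Prm2, whose groups overlapped (adjusted p = 0.0472 from limma). By the paper's account, testes of both genotypes held mostly pachytene spermatocytes at P21, and few haploid spermatids if any. The sums of spermatid markers are therefore RNA levels and do not count spermatids. Spermatogonial markers rose in 9 of 9 (5723 to 7034 against 11150 to 12760), Sertoli cell markers in 10 of 11 (42250 to 48610 against 66460 to 68440) and peritubular markers in 7 of 7. Not all somatic markers did: Leydig cell markers were higher in 2 of 4 tested (6051 to 10020 against 6001 to 11820) and endothelial markers in 1 of 5. Early meiotic markers were higher in 3 of 9, with sums of 35560 to 39820 and 37260 to 40900. In whole testes fewer cells of a type and less RNA per cell cannot be told apart. The part that these shifts have in the changes of single enzymes was not tested. The paper voices a concern that growth retardation could let Fn pachytene spermatocytes lag in development at P21. For its exon arrays it therefore set adult Fn testes beside P21 Wt testes. Whether such a lag has a part in the differences described here was not tested. Dazap1 itself read 4323, 4462 and 5046 in Wt and 2538, 2735 and 2819.8 in Fn testes, lower in every Fn array.

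Promoters are shown for 4 of the members that fell beyond 2-fold and for the member with the largest rise, to set the sequence before these genes beside their change in RNA. Each runs from 250 bases before to 50 bases after the gene's start in RefSeq on mouse build GRCm38.p6. Capitals mark TGACG on either strand, the core letters of a cyclic AMP response element, or in Ube2u the letters GTTGC and GCAAC with 3 letters between them, an X-box-like inverted repeat.
Ube2d2b, chr5:107829912-107830211, plus strand: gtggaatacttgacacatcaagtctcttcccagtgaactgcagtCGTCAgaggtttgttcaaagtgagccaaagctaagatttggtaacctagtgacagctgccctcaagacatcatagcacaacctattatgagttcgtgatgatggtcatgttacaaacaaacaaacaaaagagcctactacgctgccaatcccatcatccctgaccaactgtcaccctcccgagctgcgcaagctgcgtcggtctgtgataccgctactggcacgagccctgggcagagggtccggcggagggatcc
Ube2u, chr4:100478617-100478916, plus strand: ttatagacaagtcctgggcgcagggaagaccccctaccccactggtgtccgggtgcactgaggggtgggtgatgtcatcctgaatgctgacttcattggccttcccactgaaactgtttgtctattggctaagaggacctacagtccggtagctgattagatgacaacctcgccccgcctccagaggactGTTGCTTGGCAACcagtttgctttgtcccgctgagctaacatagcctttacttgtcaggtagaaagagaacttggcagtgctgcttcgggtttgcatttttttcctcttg
Usp2, chr9:44084670-44084969, plus strand: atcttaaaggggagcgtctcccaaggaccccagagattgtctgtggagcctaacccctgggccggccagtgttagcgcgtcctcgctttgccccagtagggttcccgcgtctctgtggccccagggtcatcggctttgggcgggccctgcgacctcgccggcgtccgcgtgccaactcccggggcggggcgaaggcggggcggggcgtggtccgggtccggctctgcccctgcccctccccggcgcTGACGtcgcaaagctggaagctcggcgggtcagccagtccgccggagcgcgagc
Usp20, chr2:30982029-30982328, plus strand: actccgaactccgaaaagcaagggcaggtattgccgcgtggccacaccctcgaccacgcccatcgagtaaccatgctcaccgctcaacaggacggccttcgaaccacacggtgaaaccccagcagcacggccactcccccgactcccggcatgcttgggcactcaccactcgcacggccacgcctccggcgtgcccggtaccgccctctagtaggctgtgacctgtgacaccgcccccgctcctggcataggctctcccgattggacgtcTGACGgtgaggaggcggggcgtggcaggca
Usp26, chrX:51801184-51801483, minus strand: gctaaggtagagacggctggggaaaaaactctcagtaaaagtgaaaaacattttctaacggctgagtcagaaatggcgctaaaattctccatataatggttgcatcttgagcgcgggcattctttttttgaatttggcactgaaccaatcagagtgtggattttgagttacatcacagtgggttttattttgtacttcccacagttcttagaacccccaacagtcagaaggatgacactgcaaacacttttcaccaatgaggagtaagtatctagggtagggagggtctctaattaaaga

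TGACG was in the window of 23.0% of the 27025 genes with an entry and in 24 of the 66 members with one (36.4%). Of members with an entry, 4 of 5 that fell beyond 2-fold had it (Ube2d2b, Usp2, Usp20 and the antisense transcript Usp46os2). So did 1 of 6 that rose beyond 2-fold (Usp11). The falls of Usp1 and Usp44 and the rises of Usp9x, Usp18, Usp22 and Usp33 are left out, as these genes had no entry. It began 206 bases before the start in Ube2d2b, 4 before it in Usp2 and 20 after it in Usp20. The full palindrome TGACGTCA, which contains TGACG, was in 2.03% of all windows and in none of these 11. The X-box-like repeat was in 0.252% of all windows and in 1 of the 66 members, Ube2u, where it began 60 bases before the start. These motifs were chosen with the changes known, and a match describes the letters in the window and is neither a site nor a cause.

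Of the E2 genes, the steepest fall was in Ube2d2b, a testis-expressed relative of the housekeeping enzyme Ube2d2a. Its signal was 5811, 5227 and 6611 in Wt and 186, 272 and 259 in Fn testes. Every Fn value lay far below every Wt value, and 4.03% of the Wt geometric mean remained (log2 change -4.63 ± 0.157 SE, adjusted p = 1.13e-07 from limma). Ube2u, a less studied E2, read 2354, 3061 and 2718 in Wt and 255, 352 and 278 in Fn. Again the groups did not overlap, and the signal was 9.22-fold lower (log2 change -3.21, adjusted p = 3e-07 from limma). Each of these genes was read by 1 tested probe set.

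The rest of the UBE2D and UBE2E families, which work with many E3 ligases, moved little or upwards. Ube2d1 rose from 613, 549.9 and 446 in Wt to 1136, 913 and 1216 in Fn (2.03-fold, adjusted p = 0.000366 from limma). Ube2e1, Ube2e2 and Ube2e3 were higher by 0.31, 0.38 and 0.58 on the log2 scale, and the call of Ube2e2 was lost without Wt array 2, Fn array 1 or Fn array 2. Ube2d2a, at 7742, 7022 and 6601 in Wt and 8107.5, 6651 and 6344 in Fn, overlapped between the groups (log2 change -0.02, adjusted p = 0.855). Ube2d3 had a log2 change of -0.22 in its brightest probe set, a call that was lost without Wt array 1, Fn array 1 or Fn array 2. Its probe sets disagreed in direction, as described with the other probe sets.

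Of 7 E2 enzymes of DNA damage signalling and chromatin tested, 0 were lower and 4 were higher, against 24.7% and 44.9% of all genes. Ube2a and Ube2b are near-identical enzymes that act with the E3 ligases RAD18, RNF20 and UBR2. X-linked Ube2a read 1028, 999 and 991 in Wt and 2285, 1896 and 2258 in Fn, with no overlap and a 2.13-fold higher level (log2 change 1.09, adjusted p = 2.24e-05 from limma). The autosomal Ube2b read 4745, 4688.5 and 4499 in Wt and 5249.7, 5315 and 5233 in Fn, 0.18 higher on the log2 scale (adjusted p = 0.0374 from limma), which no longer passed when any of the 6 arrays was left out. Ube2v2 (an E2 variant that pairs with UBE2N in building lysine-63 chains) and Ube2w were higher by 0.62 and 0.32. Both values are of the brightest probe sets, and the groups overlapped in Ube2w (adjusted p = 0.0465 from limma). Ube2n, its other partner Ube2v1 and the Fanconi anaemia E2 Ube2t had changes of -0.02, 0.16 and -0.12 and did not pass, although a second probe set of Ube2v1 was higher by 0.25 (adjusted p = 0.0195 from limma).

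Of the pair of E2 enzymes of the anaphase-promoting complex, the chain-starting Ube2c was higher by 0.46 and the chain-extending Ube2s was lower, with a log2 change of -0.41 (adjusted p = 0.00259 and 0.00489 from limma). In ER-associated degradation Ube2j1, a membrane-anchored E2, read 2357, 2084 and 2491 in Wt and 1305, 1441 and 1561 in Fn, a log2 change of -0.69 in its brightest probe set. Its other probe set showed -0.02 (adjusted p = 0.857 from limma). Its relative Ube2j2 did not pass (-0.13), and Ube2g1, Ube2g2 and Ube2k were higher by 0.82, 0.53 and 0.26. Ube2l6, the E2 of the interferon-induced modifier ISG15, rose from 77.8, 54.0 and 43.8 to 92.9, 105.5 and 133, close to the lower limit of what was tested, and the call was lost without Wt array 3 or Fn array 3. Ube2f, an E2 for NEDD8, overlapped between genotypes. Of the other E2 genes Ube2h, Ube2r2 and Ube2z rose in their brightest probe sets (0.72, 0.60 and 0.70). Ube2o, Ube2q1 and Ube2q2 did not pass. Among the symbols of other products Ube2cbp had a change of 0.71 and Ube2d-ps of -0.46. Ube2ql1 was not tested, with no signal above 38.3 in either of its probe sets.

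Among the USPs, Usp1 and Usp2 fell from high signals and in every probe set. Usp1 removes ubiquitin from FANCD2 and PCNA after DNA repair. It read 14354, 13663.5 and 14751 in Wt and 4104, 4431 and 3573 in Fn, with no overlap, so 28.2% of the Wt level remained (log2 change -1.83 ± 0.086 SE, adjusted p = 3.01e-07 from limma). Its partner Wdr48 (UAF1), without which the enzyme has little activity, fell from 4316, 4736 and 4946 to 2018, 2319 and 2064 (log2 change -1.13). Usp12 and Usp46 also bind UAF1, and Usp12 was higher by 0.85 in its brightest probe set. Usp46 had a change of -0.06 in its brightest probe set, which did not pass, and of 0.54 in its second (adjusted p = 0.00139 from limma), so how these partners compare depends on the probe set. Usp2, an enzyme of protein turnover with testis forms, read 6751, 6601 and 7306 in Wt and 1486, 1719 and 1596.5 in Fn. The groups were well apart, and the level was 4.31-fold lower (log2 change -2.11, adjusted p = 1.74e-07 from limma).

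Of 11 USPs of histone ubiquitin and chromatin tested, 3 were lower and 5 were higher (27.3% and 45.5%), close to the 24.7% and 44.9% of all genes, and 3 did not pass. Usp44, which removes ubiquitin from H2B and restrains anaphase, read 437, 261 and 507 in Wt and 64.0, 65.5 and 69.2 in Fn. All Fn values lay near the lower limit of what was tested, at 48.0, and the change was -2.55 ± 0.25 SE on the log2 scale (adjusted p = 2.77e-05 from limma). Usp16, an H2A enzyme, had a log2 change of -0.64. Usp42 was at -0.35, a call that was lost after quantile normalization (-0.25, adjusted p = 0.0527 from limma). Its mean over probe sets was 0.42 and did not pass (adjusted p = 0.509 from limma). That mean takes in a probe set too dim to test, with no signal above 32.1. Usp22, the H2B enzyme of the SAGA complex, rose from 2063, 1649.5 and 1753 to 3618, 3193 and 4500.0, with no overlap and a 2.06-fold higher level (log2 change 1.04, adjusted p = 0.000146 from limma). Usp3 rose by 0.81, Usp27x by 0.97, Usp36 by 0.88 and Usp11 by 1.30 in their brightest probe sets. Usp7, Usp21 and Usp49 did not pass, with changes of -0.12, -0.27 and 0.29.

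Of 10 USPs of endosomes, membrane proteins and mitochondria that were tested, 5 were lower and 4 were higher, beside 24.7% and 44.9% of all genes. Usp20 and Usp33 are close relatives that act on membrane receptors, and they went opposite ways. Usp20 read 1125.5, 1288 and 1558.5 in Wt and 471, 524 and 567.5 in Fn, 2.53-fold lower (adjusted p = 4.41e-05 from limma). Usp33 read 447, 486 and 369.6 in Wt and 955, 1045 and 862 in Fn, 2.21-fold higher (adjusted p = 0.000102 from limma). Neither gene overlapped between genotypes. Usp8, an endosomal enzyme found at the acrosome, read 4860.3, 4212 and 5343 in Wt and 2594, 2512 and 2746 in Fn, a log2 change of -0.87, and the mitochondrial Usp30 had a change of -0.44. Usp10 and Usp19 were higher by 0.54 and 0.27 and Usp32 was lower, at -0.31, a call lost after quantile normalization (-0.16). Usp50 was under the level needed for the test, since its mean over all arrays was low. It read 205, 103 and 142 in Wt and 20.8, 22.3 and 3.4 in Fn, so every Fn value lay below 48.0 and the level was at least 3.01-fold lower.

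**Figure D2:**
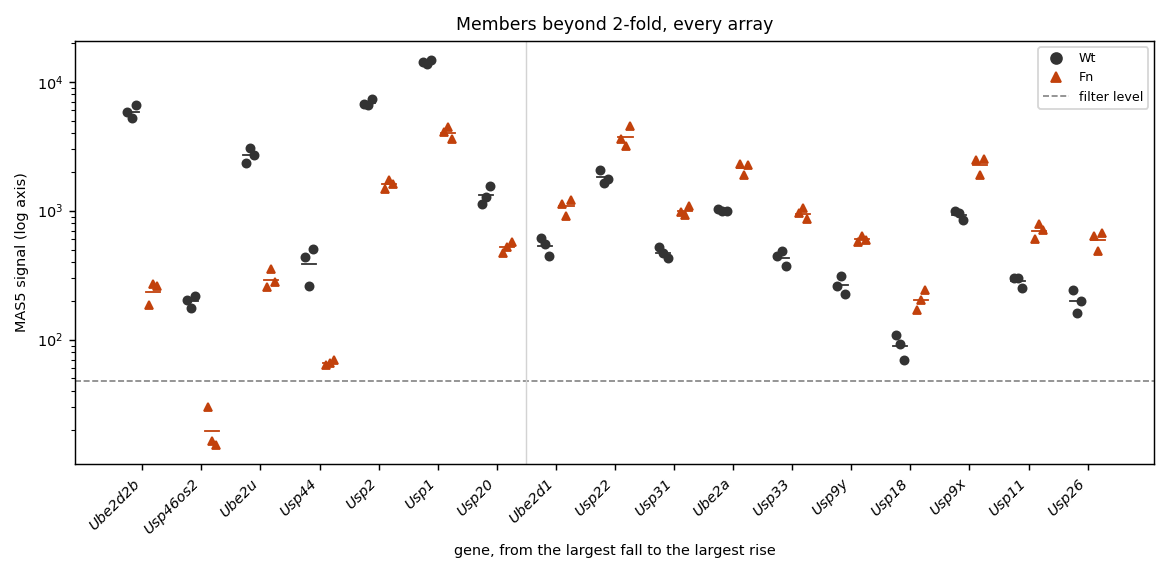
MAS5 signal on each array (log axis) of the 17 members that passed the test and lay beyond 2-fold, from the largest fall on the left to the largest rise on the right. Circles are Wt and triangles Fn arrays, 3 of each, short lines mark each geometric mean, and the level needed for testing, 48.0, is dashed. In no gene shown do the Wt and Fn arrays overlap, and only Usp46os2 lies under the filter level in Fn.

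All 6 members on the sex chromosomes were higher in Fn testes, with a median log2 change of 1.23. This was also the rule for the X chromosome: 86.3% of the 461 X-linked genes tested were higher and 49.9% were higher beyond 2-fold, so the 5 X-linked members did what most X-linked genes did. Usp26, an X-linked gene with expression mainly in testis, had the largest rise of any member, from 241, 162 and 201 to 641, 488 and 675 (log2 change 1.58 ± 0.188 SE, adjusted p = 8.77e-05 from limma). Usp9x, an enzyme needed by germ cells, rose from 993, 958 and 853 to 2458, 1893 and 2516 (2.44-fold), and its Y-linked copy Usp9y from 263, 312 and 226 to 575, 633 and 595 (2.27-fold). Usp11, an enzyme of DNA repair, went from 299, 299.5 and 253 to 607, 786 and 704 (2.46-fold). In none of them did the groups overlap. Among the 73 autosomal members tested 19 were lower and 28 were higher, with a median of -0.02.

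Of the remaining USPs, Usp18 removes ISG15 and rose from 109, 92.0 and 69.3 to 171, 203.5 and 244, in the same direction as Ube2l6 (2.31-fold, adjusted p = 0.0016 from limma). Macrophage markers were higher in 3 of 5 genes tested, with sums of 3123 to 3900 in Wt and 4123 to 5582 in Fn, and their part in these interferon-linked genes was not tested. Usp31 rose from 519, 470.2 and 431 to 971, 929.8 and 1088 (2.11-fold). Usp28 and Usp53 rose by 0.97 and 0.59 and the proteasome-bound Usp14 by 0.54, although the groups overlapped in Usp14. Usp4 and Usp15, which act on splicing factors among other proteins, were lower in their brightest probe sets (-0.73 and -0.84), as was Usp47 (-0.38). The genes that did not pass were Usp5, Usp24, Usp25, Usp34, Usp37, Usp38, Usp39, Usp40, Usp43, Usp45, Usp48, Usp54 and Usp6nl, beside those named above, with changes between -0.26 and 0.50 in their brightest probe sets. Usp46os2, an antisense transcript, read 204, 176.5 and 217 in Wt and 30.1, 16.4 and 15.3 in Fn, at least 4.13-fold lower. The brightest probe set of Usp46 did not pass, and its second was higher. Usp13, Usp17la and Usp29 were not tested, with no signal above 66.1 in any of their probe sets.

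Centring the arrays on their medians lowered every change by 0.16. Of the 10 rises beyond 2-fold, Usp26, Usp11, Usp9x, Usp18 and Usp9y then still lay beyond 2-fold, with 1.43 to 1.02 on the log2 scale, and Usp33, Ube2a, Usp31, Usp22 and Ube2d1 lay between 0.98 and 0.87, all still past the test. Rises that no longer passed were those of Ube2b, Ube2c, Ube2cbp, Ube2e1, Ube2e2, Ube2k, Ube2w, Usp14 and Usp19, and Ube2j2, Ube2t, Usp7, Usp21, Usp39 and Usp45 now passed as lower, which leaves 10 Ube2 and 15 Usp genes higher. The 7 falls beyond 2-fold remained so under every change of scaling.

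Related enzymes were set side by side on the same arrays. For 27 pairs of closely related or partner enzymes with both genes tested, the difference of their log2 signals was computed on each array and compared between genotypes. In 20 pairs the 3 Fn differences lay outside the 3 Wt differences, and in 10 the changes were more than 1 apart on the log2 scale. Of all single genes tested, 75.6% had groups that did not overlap. Pairs of unrelated genes were not compared, so these counts do not show that related enzymes part more often than other genes. With 3 arrays a genotype an exact two-sided permutation test cannot give a p under 0.10, which is 0.135 after adjustment over the 27 pairs, so no pair could pass the threshold. In 6 pairs the genes were called in opposite directions.

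The widest gap was between Ube2d2b and Ube2d2a, whose changes differed by 4.61. The SD of their log2 difference was 0.24 over the Wt and 0.48 over the Fn arrays. Usp44 and its relative Usp3, both enzymes of histone ubiquitin, differed by 3.36, and Usp20 minus Usp33 was -2.48. X-linked Usp11 and its autosomal relative Usp15 differed by 2.13, and Usp2 fell by 1.84 more than Usp21. Ube2a rose by 0.91 more than Ube2b, with an SD of the difference of 0.024 over Wt and 0.16 over Fn arrays. Other pairs overlapped: Usp9x and Usp9y differed by 0.10 (exact p = 0.6) and Usp22 and Usp27x by 0.07 (exact p = 1). Copies as alike as these can share probes, so the signals of Usp9x and Usp9y, of Ube2d2a, Ube2d2b and Ube2d3, and of Ube2a and Ube2b may not be wholly separate.

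**Figure D3:**
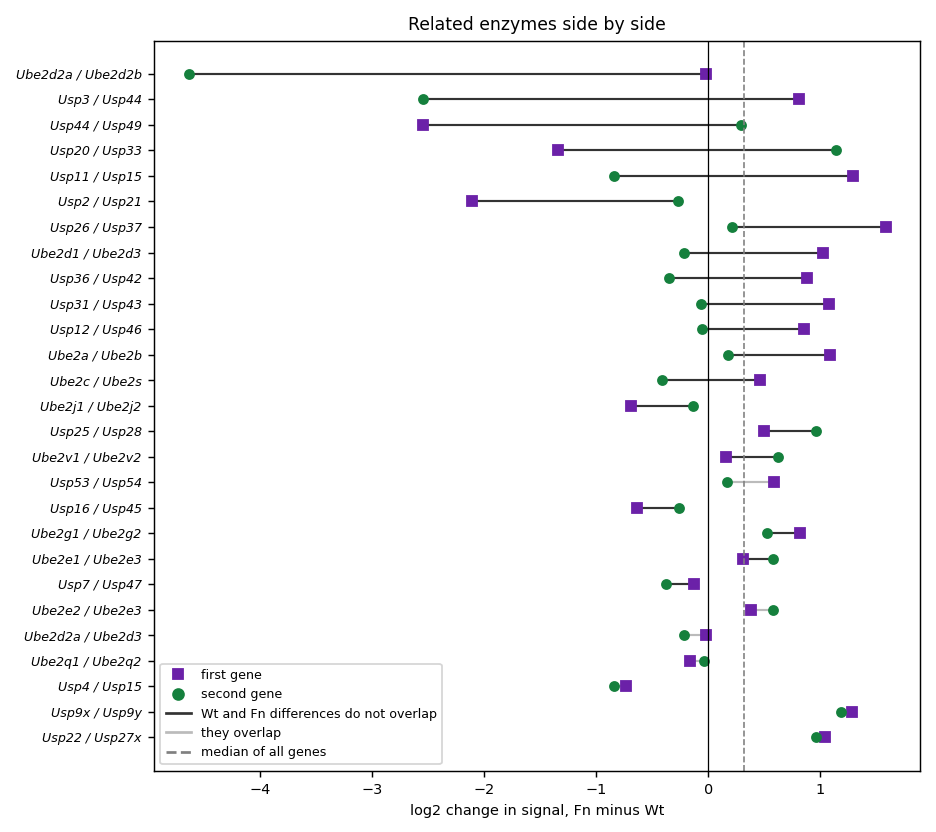
Change on the log2 scale from Wt to Fn testes for the 2 genes of 27 pairs of related enzymes, the first gene of the label as a square and the second as a circle, ordered by the size of the gap. Dark lines join pairs whose 3 Fn differences lie outside the 3 Wt differences (20 pairs), grey lines those that overlap, and a dashed line gives the all-gene median. Ube2d2a and Ube2d2b are 4.61 apart, while Usp9x and Usp9y lie together near 1.2.

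Several members are read by more than 1 probe set, and these did not always move together. Of 209 probe sets that name a member alone 182 were tested, and 53 genes had more than 1. In 4 of them every tested probe set was lower, in 10 every one was higher, in 5 some were lower and some higher, and in 9 the changes were more than 1 apart. Of the 7 falls beyond 2-fold, Ube2d2b, Ube2u, Usp46os2 and Usp44 had 1 tested probe set each. The others fell in each one tested: the 3 probe sets of Usp1 had changes of -1.83, -1.83 and -1.91, both of Usp2 -2.11 and -1.91, and the 3 tested for Usp20 -1.34, -1.11 and -2.12. Among the rises, all 7 probe sets of Usp9x were higher (0.73 to 1.28), as were both of Ube2a (1.09 and 1.61) and of Usp22 (1.04 and 1.17).

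In 8 members the brightest probe set did not pass while another was called: Ube2d2a, Ube2f, Ube2v1, Usp7, Usp34, Usp45, Usp46 and Usp48, where the second brightest of Usp48 rose by 0.74 (adjusted p = 0.000285 from limma). In 10 members the brightest was lower and another tested one was not (Ube2d-ps, Ube2d3, Ube2j1, Ube2s, Usp4, Usp8, Usp15, Usp30, Usp32 and Usp47). In 12 the brightest was higher and another tested one was not: Ube2b, Ube2e3, Ube2k, Ube2r2, Ube2v2, Ube2z, Usp3, Usp12, Usp19, Usp31, Usp36 and Usp53. The rises given above for these 12 genes are those of the brightest probe set alone.

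Genes with probe sets called in both directions were Ube2b, Ube2d2a, Ube2d3, Usp15 and Usp32. In Ube2b the second brightest probe set fell, with a change of -0.57 (adjusted p = 0.00019 from limma), against 0.18 for the brightest and 0.84 and 0.92 for the dimmer ones. In Ube2d3 the 2 brightest probe sets had -0.22 and -0.31, and the next 4 rose by 0.44 to 0.75. In Usp32 the brightest, at a Wt geometric mean of 8251, had -0.31, and one at 137 rose by 1.15. In Usp15 the brightest had -0.84, and one at 73.9 rose by 0.91. Where these probe sets lie on the transcripts was not analysed here, so forms of the RNA and probes that read something else cannot be told apart. The directions of these 5 genes belong to single probe sets and not to the gene as a whole.

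**Figure D4:**
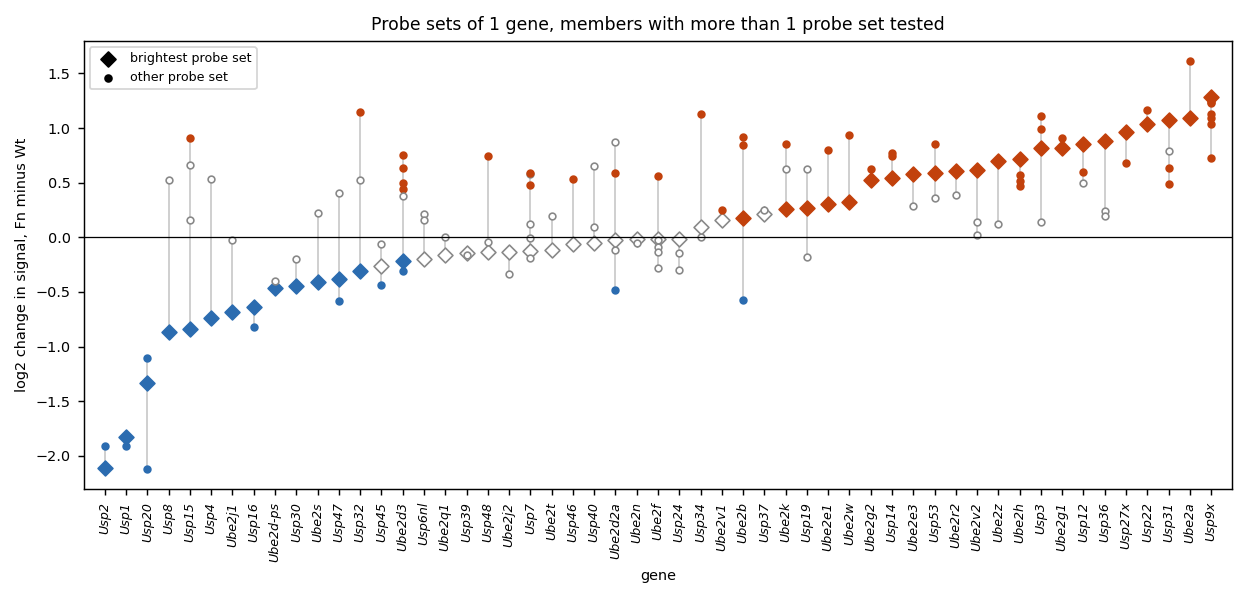
Change on the log2 scale from Wt to Fn testes for each tested probe set of the 53 members with more than 1, with the brightest as a diamond and the others as small circles, ordered by the brightest. Blue marks lower and orange higher at an adjusted p under 0.05, open symbols did not pass, and grey lines span a gene's probe sets. Usp1, Usp2 and Usp20 are low and Usp9x, Ube2a and Usp22 high throughout, while Ube2b, Ube2d3, Usp15 and Usp32 cross 0 with filled symbols on both sides.

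Other genes of the pathway were called lower or higher in shares not far from those of all genes, 24.7% and 44.9%. Of 8 E1 genes tested 2 were lower and 3 were higher (25.0% and 37.5%). Uba1y, the Y-linked ubiquitin E1, rose from 2077, 1891 and 1534 to 4380.4, 4317 and 4576 (log2 change 1.28), Uba6, a further ubiquitin E1, by 0.91 and Uba3, the catalytic subunit for NEDD8, by 0.60. Mocs3, an E1-like enzyme of sulfur transfer, had a change of -1.55. Of 8 E2 or E2-like genes with other names 1 was lower and 4 were higher: Atg10 of autophagy (1.15), Birc6 (0.96), Uevld (0.46) and Aktip (0.33).

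Among 19 E3 genes that work with these E2 enzymes in meiosis or chromatin 6 were lower and 8 were higher (31.6% and 42.1%). Ubr2, the partner of UBE2B in meiotic silencing, rose from 403, 447 and 368 to 797, 868 and 962 (log2 change 1.11), and X-linked Huwe1 by 1.02 and Rnf4 by 0.79. The 2 subunits of the H2B ligase parted: Rnf40 had a change of -1.22 and Rnf20 of 0.45. Fzr1, an activator of the anaphase-promoting complex, was at -1.18. Rad18, the PCNA ligase that pairs with UBE2A and UBE2B, was at -0.75. Rnf20, Rnf40 and Rad18 were named after their values were seen.

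Of 26 deubiquitinases of other families tested 9 were lower and 9 were higher (34.6% each), with Stambp of endosomes (-0.95) and Cops5 of the COP9 signalosome (-0.66) lower and the neuronal and spermatogonial Uchl1 (0.89) and Otud4 (0.96) higher. Among all genes tested 24.7% were lower, with 13.8% lower beyond 2-fold, and 44.9% were higher. Of 10 cofactors of USPs tested 3 were lower, all beyond 2-fold, and 4 were higher. Beside Wdr48 the lower ones were Wdr20rt, a retrogene copy of the USP12 and USP46 partner Wdr20, and Gmps, an activator of USP7. Wdr20rt read 2964, 2892 and 3123 in Wt and 322, 445 and 236 in Fn (log2 change -3.21), whereas Wdr20 had a change of 0.28. Gmps read 10064, 9837.5 and 10688 in Wt and 4055, 4130.2 and 3819 in Fn (log2 change -1.35), whereas the brightest probe set of Usp7 did not pass. Dmwd, a further partner of USP12 and USP46, was higher by 0.61. Wdr20 was named after its value was seen.

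**Figure D5:**
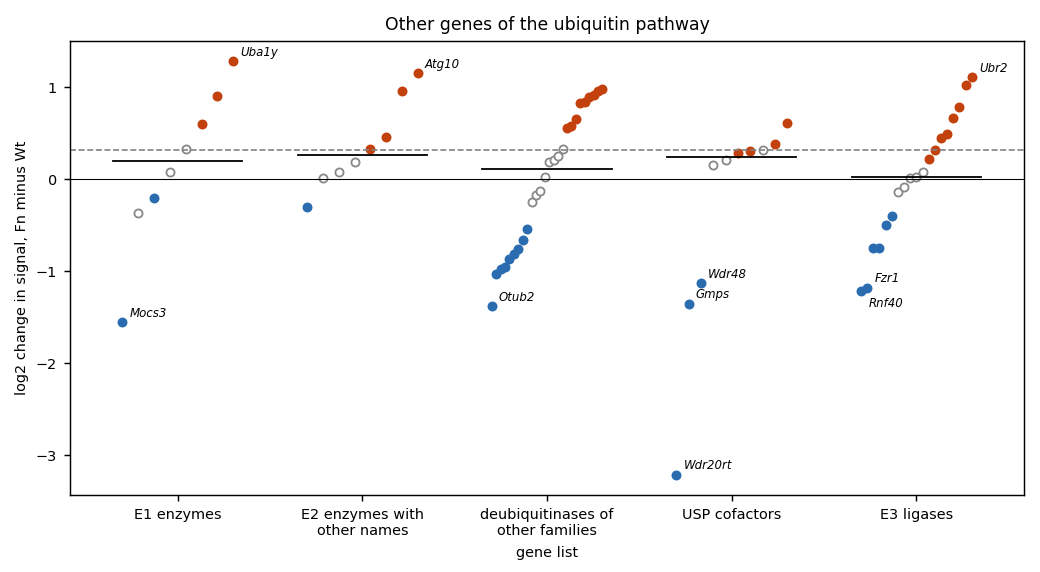
Change on the log2 scale from Wt to Fn testes for the tested genes of 5 lists of other ubiquitin pathway genes, 1 point per gene (blue lower, orange higher, open did not pass), with the list's median as a black line and the median of all genes dashed. Labels mark genes beyond 1.1 in size. In each list points lie on both sides of 0 and the medians lie between 0.02 and 0.26, under the median of all genes at 0.32.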

How the data were processed

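RNA of 3 Wt and 3 Fn samples of whole testes at postnatal day 21 was measured on 6 arrays, 1 per sample, with different RNA preparations. For 45037 probe sets the authors deposited a linear intensity, the MAS5 signal (software named by the submitters' processing notes, version not given in the sources used here), and the mean of each array without its extremes was 498.4 to 498.6, which shows scaling to 1 level before deposit. Precision is limited by the number of arrays. The labels call the samples biological replicates, and p-values reflect only how these samples vary. Detection calls were not analysed here.

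Genes were named through the platform annotation, in which 34945 probe sets name 1 gene, 932 several and 9160 none. The RefSeq table of GRCm38.p6 held 83 of the 84 members. A further 8 probe sets name a Ube2 or Usp gene together with another gene and were not used. The 1 value of 0 was set to 0.1. Log2 intensity was fitted with limma 3.58.1 in R 4.3.3 (lmFit and eBayes with an intensity trend) over the 27022 probe sets whose geometric mean reached the 40th percentile (48.0), and p-values were adjusted by Benjamini-Hochberg over all of them. The filter uses all 6 arrays, so a gene that is low in Fn can drop out. Beyond 2-fold means the ratio of geometric means. Where 1 group lies under 48.0, the fold is a bound against that level. The steps were tested on simulated data.

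Replicates are numbered 1 to 3 in both genotypes. After subtracting group means, Wt and Fn arrays that carry the same number correlated at 0.13, 0.12 and 0.16, and those of other pairs at -0.15 to 0.04. The numbers may therefore mark pairs. The main fit and the test of related enzymes did not use them as pairs, and a fit with the number as a block was run as an alternative. A pairing would rest on this check alone, since no source states it.

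Named genes are the members beyond 2-fold at an adjusted p under 0.05, both genes of each listed pair, sex-linked members, up to 4 genes of each pathway list with the smallest p, and Dazap1. Others were chosen after their values were seen. The members and all lists were chosen with earlier results of these data known. Alternatives covered the scaling, the filter, a pseudocount of 16, array weights, the intensity trend, the choice of probe set, the replicate block and leaving out each array.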

Additional observations from a re-analysis of the deposited data

How the results depend on the processing

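Of 957 comparisons of 58 named members with an alternative, 888 counted as kept, 41 lost the call, 18 gained one and 10 changed sign. A sign change was counted only where the main fit or the alternative passed, and otherwise the comparison counted as kept. Ube2d2a, for example, went from -0.02 to 0.11 after quantile normalization, and Usp5 from 0.04 to -0.12 centred on medians. By this count 31 members were kept in every alternative. The fit with the replicate block gave the same counts for both families (Ube2 6 lower and 17 higher, Usp 13 lower and 17 higher) and changed no call of a named member. The 10 sign changes counted came only with another choice of probe set. With the mean of probe sets Ube2d3 had 0.31, Usp15 0.40, Usp42 0.42 and Usp46 0.24. This mean takes in probe sets too dim to test, as in Usp42. With the second brightest Ube2b had -0.57, Ube2s 0.22, Usp15 0.16, Usp4 0.53, Usp46 0.54 and Usp8 0.53.

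Ube2 genes higher beyond 2-fold numbered 2, but 1 after quantile normalization, with array weights or with the second brightest probe set, 0 when centred on medians or on the 75th percentile, and 1 to 3 without 1 array. Ube2 genes higher numbered 10 when centred on medians. The second brightest probe set was tested in 23 Ube2 and 30 Usp genes. With it, Ube2 genes were 2 lower and 8 higher, with 0 lower beyond 2-fold. Usp genes were 6 lower and 9 higher, with 3 lower and 4 higher beyond 2-fold. Centred on medians 5 Usp genes were higher beyond 2-fold. Usp genes lower beyond 2-fold were 3 with a filter at the 60th percentile, and Usp genes lower were 6 with the mean of probe sets.

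The Ube2 median change was 0.0625 centred on medians and 0.0917 on the 75th percentile. The Usp median was -0.121 and -0.0918 there, 0.10 without a filter, 0.0935 with array weights, 0.23 with the mean of probe sets, 0.22 with the second brightest, 0.10 without the 4 symbols of other products (chosen after seeing the data), and -0.0271 (Wt array 2 left out) to 0.1199 (Fn array 2 left out) without 1 array. The median of all genes moved from 0.32 to 0.25 by quantile normalization, 0.17 by medians and 0.19 by the 75th percentile. Signals near 48.0 are the least certain.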
